A study of Mus musculus with 16 samples.

Results

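The response of CPEB4 knockout (KO) macrophages to lipopolysaccharide (LPS) was described from 2 Input libraries, one of untreated and one of stimulated cells, and set beside the same response in the wild type (WT). CPEB4 binds mRNAs at cytoplasmic polyadenylation elements (CPEs), which are U-rich motifs of the 3′-UTR, and an Input library holds the RNA of a cell lysate before the immunoprecipitation with an anti-CPEB4 antibody. The KO response covers 4 of the 16 samples of the series, since each library was sequenced in lanes 7 and 8, whose reads are added up in the deposited table. The cells were bone marrow-derived macrophages (BMDMs), grown in culture from the bone marrow of C57BL/6J 129 mice. The KO culture was numbered 73 and came from Cpeb4-/- mice, which the study calls total knockouts, as against its knockout in myeloid cells only. The WT culture was numbered 76. Each culture was left untreated or received 10 ng/ml LPS for 9 h, and all cells were crosslinked with formaldehyde before lysis. Ribosomal RNA was depleted from the Inputs. There was 1 library for each genotype and treatment, so no difference below has a replicate check, no p-value is given, and a difference between libraries cannot be told apart from one between cultures.

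LPS is a component of the outer membrane of Gram-negative bacteria that macrophages detect through Toll-like receptor 4. Its receptor complex activates NF-kB and, through a type I interferon loop, the STAT factors, and macrophages then induce cytokines, chemokines and interferon-stimulated genes together with the inhibitors that later end the response. Many of the induced mRNAs are short-lived and carry AU-rich elements (AREs), repeats of AUUUA in the 3′-UTR that are bound by proteins such as Zfp36 (tristetraprolin). CPEB proteins act at the same end of the mRNA, on the length of the poly(A) tail.

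A gene was represented by 1 annotated 3′-UTR region, the one of its symbol with the most reads over all 8 libraries, and the table held 14925 genes. The KO Inputs held 1325968 (untreated) and 1502378 (LPS) reads over 3′-UTRs, and the WT Inputs 929054 and 1897360. Reads were scaled to these totals, 1 read was added to each library, and the LPS response is the log2 ratio of LPS over untreated. Intervals in parentheses are 95% and cover counting error only, except the Wilson intervals of shares. Those treat genes as independent, which genes read in the same libraries are not, and they are a description. A gene was tested where its 2 libraries held at least 50 reads together, which left 5010 genes in the KO. Where the reads of a gene are given as a pair, the untreated library comes first.

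The targeted gene was read first, though the deleted part of Cpeb4 is not given in the sources used here, so that its 3′-UTR may not check the labels. The 3′-UTR of Cpeb4 (chr11:31931533-31935634, + strand) had 69 and 79 reads in the KO Inputs and 121 and 258 in the WT Inputs. This region was thus still read in the KO, at a KO over WT log2 ratio of -1.31 untreated and -1.36 with LPS, whose intervals lay below 0, and the LPS response of Cpeb4 was 0.01 (-0.45 to 0.48) in the KO. The Inputs had the markers of macrophages. The 9 macrophage markers in the table, Lyz2 and Csf1r among them, summed to between 2647 and 3952 CPM, the reads of a gene scaled to 1000000 3′-UTR reads, in the 4 Inputs. The markers of dendritic cells held from 2 to 3 reads in a library, those of T and NK cells from 3 to 13, and those of B cells from 16 to 29, most of them of Blnk. Mast cell markers had no read and erythroid markers at most 1. Of 4 neutrophil markers 2 were at 0, and their sum was from 33 to 185 reads, nearly all of Csf3r. Its sum was higher with LPS in both genotypes, as was that of the fibroblast markers, which was at most 1 read untreated and 65 (KO) and 68 (WT) reads with LPS, nearly all of Pdgfrb. In such bulk libraries fewer cells of a type and less RNA per cell cannot be told apart. The part of other cells in the response was not tested.

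In the KO, 681 genes were at least 2-fold higher with LPS (13.6% of those tested) and 873 were at least 2-fold lower (17.4%). The median of all 5010 genes was -0.12, 5% of the genes lay below -1.99, and 5% lay above 2.06. Changes of at least 8-fold were found for 139 genes upward and 82 downward. The balance of the 2 directions depended on the scaling. Of all KO calls 43.8% were upward with 3′-UTR totals, 56.1% with TMM factors, 57.1% with median-of-ratios scaling and 52.7% with the library totals behind the authors' RPKM. These scalings shifted every KO ratio upward by 0.14 to 0.21. Changes close to 0 have therefore no settled sign, and gene groups are given beside the median of all genes.

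Of the 15 largest increases in the KO, ranked by the end of the interval nearest 0, 14 are described here, those of Ptges, Acod1, Nos2, Slc7a2, Socs3, Il1b, Ccl5, Ptgs2, Gbp5, AA467197, Cd38, Fscn1, Ccnd2 and Lcn2. They had at most 25 reads untreated and from 237 to 3047 with LPS. Ptges and Ptgs2 (cyclooxygenase-2), which make prostaglandin E2 in succession, had 12 and 3047 and 1 and 474 reads in the KO, with responses of 7.69 (6.91 to 8.48) and 7.71 (5.71 to 9.72). In the WT the pairs were 8 and 3241 for Ptges and 1 and 723 for Ptgs2. Both thus had few reads before LPS in either genotype. Genes of arginine and itaconate metabolism stood next to them. Nos2, the inducible nitric oxide synthase, had 0 and 540 reads in the KO Inputs and 0 and 598 in the WT Inputs. Against a floor of 3 counts in the untreated library this was at least 159-fold higher in the KO. Acod1, which makes itaconate, had 2 and 848 reads in the KO Inputs and 2 and 1213 in the WT Inputs. Slc7a2, an arginine transporter, had 8 and 1294 reads in the KO Inputs and 8 and 1955 in the WT Inputs. Before LPS none of Nos2, Acod1 and Slc7a2 had over 8 reads in an Input.

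Among the other genes of this group, Il1b, the precursor of interleukin 1β, had 3 and 764 reads in the KO Inputs and 3 and 983 in the WT Inputs, and Ccl5, a chemokine for T cells and monocytes, had 3 and 645 reads in the KO Inputs and 4 and 657 in the WT Inputs. Socs3, an inhibitor of cytokine receptor signalling, had 13 and 1709 reads in the KO Inputs and 7 and 2056 in the WT Inputs. Fscn1, which bundles actin filaments, and Lcn2, which binds bacterial siderophores, had no read in either untreated library. With LPS they had 265 and 237 reads in the KO, at least 78-fold and 69.7-fold higher. Cd38, which consumes NAD, had 2 and 375 reads in the KO Inputs and 0 and 489 in the WT Inputs. Ccnd2 (cyclin D2) had 25 and 1325 reads in the KO Inputs and 13 and 1494 in the WT Inputs. The region of AA467197 overlaps that of the microRNA gene Mir147, and the library did not mark the strand, so that reads of the 2 cannot be told apart. These 14 genes were also at least 2-fold higher in the WT, and none of them departed from the WT by the rule given below, where intervals of such genes are wide because of their few untreated reads.

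**Figure D1:**
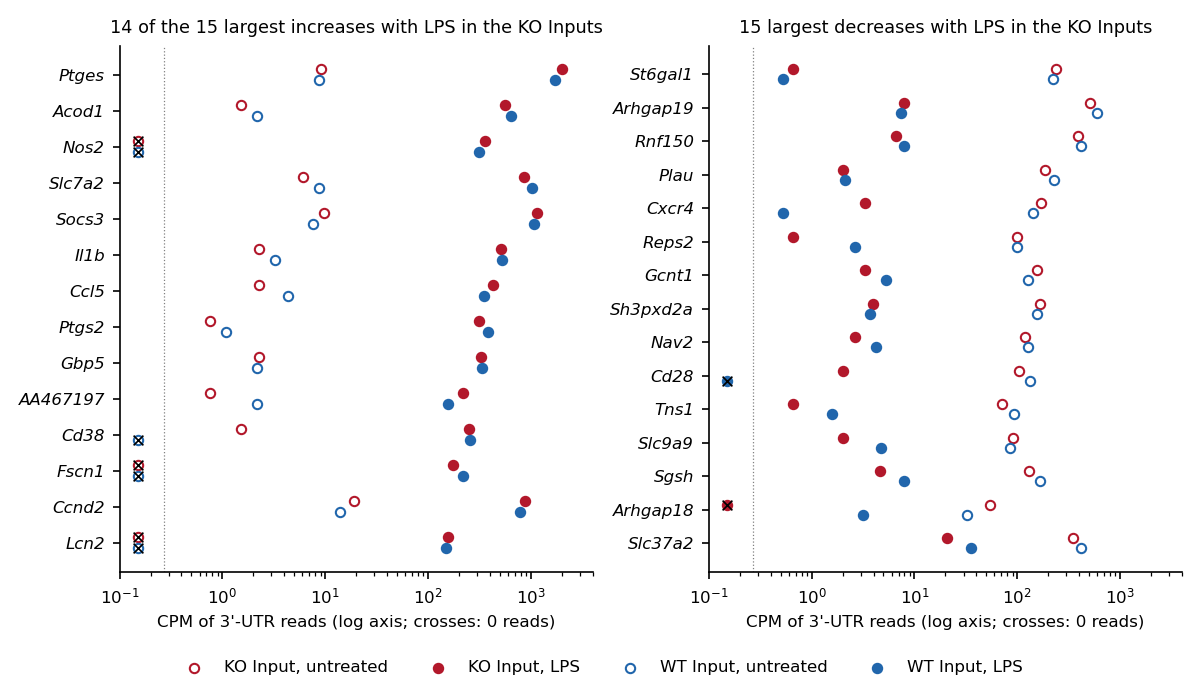
Levels in the 4 Inputs of 14 of the 15 genes with the largest increase (left) and the 15 with the largest decrease (right) with LPS in the KO, in CPM of 3′-UTR reads on a log axis. Open circles are untreated and filled circles LPS libraries, red is KO and blue WT, and crosses left of the dotted line mark 0 reads. Untreated and LPS points are far apart for the genes shown in both genotypes, while KO and WT points of the same treatment lie close together for most.

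The 15 largest decreases were those of St6gal1, Arhgap19, Rnf150, Plau, Cxcr4, Reps2, Gcnt1, Sh3pxd2a, Nav2, Cd28, Tns1, Slc9a9, Sgsh, Arhgap18 and Slc37a2. They had from 72 to 676 reads in the untreated KO library and at most 31 with LPS. St6gal1, a sialyltransferase of the Golgi, had 315 and 1 reads in the KO Inputs and 209 and 1 in the WT Inputs, with a KO response of -7.48 (-9.49 to -5.48). Plau, the urokinase-type plasminogen activator, had 249 and 3 reads in the KO Inputs and 210 and 4 in the WT Inputs. Its KO response was -6.15 (-7.57 to -4.72). Cxcr4, the receptor of Cxcl12, had 227 and 5 reads in the KO Inputs and 131 and 1 in the WT Inputs. Gcnt1, a glycosyltransferase that branches O-glycans, had 208 and 5 reads in the KO Inputs and 117 and 10 in the WT Inputs. Sh3pxd2a, a scaffold of podosomes, had 223 and 6 reads in the KO Inputs and 146 and 7 in the WT Inputs. Tns1 (tensin 1), of focal adhesions, had 95 and 1 reads in the KO Inputs and 87 and 3 in the WT Inputs. Arhgap19, a GTPase-activating protein, had 676 and 12 reads in the KO Inputs and 556 and 14 in the WT Inputs. In the KO the decrease of Arhgap19 was -5.88 (-6.67 to -5.09). Cd28, best known as a costimulatory receptor of T cells, had 138 and 3 reads in the KO Inputs and 123 and 0 in the WT Inputs, while the T and NK cell markers had at most 13 reads. Of the 15 genes 14 were at least 2-fold lower in the WT too. Arhgap18, with 30 and 6 reads there, was below the read minimum. The region of Sgsh overlaps exons of Card14 by 839 bases and that of Rnf150 exons of Gm45449 by 547 bases.

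AREs were looked for in these 3′-UTRs. Within 30 bases, 3 or more AUUUA were found in the regions of 3 of the 15 genes that rose most and of 2 of the 15 that fell most. They are shown because AUUUA is the core of AREs and clusters of it occurred on both sides of the response. The windows are written as DNA, 5′ to 3′, from the RefSeq genome sequence of GRCm38.p6, and capitals mark ATTTA.
Ptgs2: atATTTATTTATTTAtgtgaagaATTTAat
Il1b: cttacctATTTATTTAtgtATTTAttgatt
Cd38: actttcctcATTTATTTATTTAattgagct
Reps2: agcattATTTATTTAaagaATTTAtaattc
Sh3pxd2a: taATTTAtgactATTTAaaataaaATTTAa
The window of Ptgs2 is at chr1:150105796-150105825, + strand, that of Il1b at chr2:129364802-129364831, - strand and that of Cd38 at chr5:43911494-43911523, + strand. Those of the genes that fell are at chrX:162417042-162417071, - strand (Reps2) and chr19:47264995-47265024, - strand (Sh3pxd2a). With at least 2 copies in 30 bases the counts were 6 of 15 and 7 of 15. Over all tested genes, ATTTA occurred 1.74 times per kb in the regions of genes that were higher with LPS in the KO, 1.63 in those that were lower and 1.72 in those that were neither. The nonamer TTATTTATT, which contains ATTTA, occurred 0.75 times per 10 kb among the higher genes, 0.44 among the lower and 0.59 among the others. By gene the shares with a nonamer were 8.37% (95% Wilson interval 6.52% to 10.7%), 8.93% (7.22% to 11.0%) and 8.68% (7.79% to 9.67%). The intervals of these shares overlapped, which is no test, since the genes share their libraries.

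Motifs of the factors that LPS activates were sought in promoters, from 250 bases before to 50 after a RefSeq gene start, on both strands, where matches of different motifs could overlap. Of the 681 higher genes 544 matched a promoter, as did 710 of the 873 lower ones. An NF-kB-like motif, GGNNTTTCC, was in 12.1% of the promoters of the higher genes (95% Wilson interval 9.65% to 15.1%), in 7.04% of the lower ones (5.38% to 9.16%) and in 6.95% of genes that were neither (6.07% to 7.95%). Over all promoters of the table the share was 6.62%. An ISRE-like motif, GAAANNGAA, as bound by interferon regulatory factors, was in 15.1% (12.3% to 18.3%), 7.18% (5.51% to 9.32%) and 8.16% (7.20% to 9.22%) of these groups, and in 9.76% of all promoters. The AP-1-like motif TGANTCA was in 9.56%, 7.75% and 6.06%, and in 8.97% of all. A match is a run of letters and not a site that was shown to be bound. The NF-kB-like motif is shown for the 2 of the 15 largest increases whose promoter held it, with the motif in capitals.
Acod1: gttgaaatggtGGAAATTCCatggttgaaa
Gbp5: gggagaggaaaGGAAATTCCcagggctggc
The window of Acod1 is at chr14:103046916-103046945, + strand and that of Gbp5 at chr3:142496846-142496875, + strand, on GRCm38.p6. Both hold the same 9 letters, and the motif as spelled lies on the strand opposite to the one printed.

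The inflammatory mediators were examined as lists of genes. Among the cytokines of 8 tested members 6 were at least 2-fold higher and 0 at least 2-fold lower, with a median KO response of 3.01 beside -0.12 over all genes. Tnf, tumour necrosis factor, had 48 and 465 reads in the KO Inputs and 44 and 828 in the WT Inputs, and Il1a had 1 and 206 reads in the KO Inputs and 0 and 750 in the WT Inputs. Tgfb1, which dampens inflammation, had 56 and 47 reads in the KO Inputs and 40 and 71 in the WT Inputs, with a KO response of -0.43 (-0.98 to 0.13). Il6 had 0 and 7 reads in the KO, below the minimum. Among the chemokines of 11 tested members 9 were at least 2-fold higher and 0 at least 2-fold lower, and their median was 2.93. Ccl9 had 1165 and 3302 reads in the KO Inputs and 850 and 4023 in the WT Inputs, and its KO response of 1.32 (1.23 to 1.42) was far smaller than that of Ccl5. Cxcl9 had no read untreated and 207 in the KO with LPS, at least 60.9-fold higher. Cxcl2, which attracts neutrophils, had 7 and 168 reads in the KO Inputs and 3 and 401 in the WT Inputs.

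Of the interferon-stimulated genes, which code for antiviral proteins, 37 of 42 tested members were at least 2-fold higher in the KO and none was lower, with a median of 1.96. Rsad2 (viperin) had 191 and 2446 reads in the KO Inputs and 121 and 2987 in the WT Inputs, Cmpk2 had 73 and 840 reads in the KO Inputs and 69 and 1124 in the WT Inputs, and Parp14 had 288 and 574 reads in the KO Inputs and 220 and 879 in the WT Inputs. Their KO responses were 3.49, 3.33 and 0.81. The smallest was that of Bst2 (tetherin), at 0.71 (0.45 to 0.96). Components of Toll-like receptor signalling moved less, as of 19 tested members 6 were at least 2-fold higher and 1 at least 2-fold lower. Myd88, the adaptor of most of these receptors, had 129 and 345 reads in the KO Inputs and 93 and 401 in the WT Inputs. Rela, a subunit of NF-kB, had 195 and 226 reads in the KO Inputs and 131 and 336 in the WT Inputs, and its KO response was 0.03 (-0.24 to 0.31). Tlr13, a receptor for bacterial ribosomal RNA, was the 1 member that fell, with 88 and 10 reads in the KO Inputs and 70 and 24 in the WT Inputs.

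Genes listed as negative feedback regulators mostly rose in the KO. The lists share members, and Acod1 and Sod2 of this list are also among the arginine, nitric oxide and itaconate genes. Of the negative feedback regulators 20 of 29 tested members were at least 2-fold higher and 3 at least 2-fold lower, with a median of 2.39. Il1rn, the antagonist of the interleukin 1 receptor, had 110 and 2696 reads in the KO Inputs and 109 and 2845 in the WT Inputs, and the KO response was 4.42 (4.15 to 4.70). Tnfaip3 (A20), an inhibitor of NF-kB, had 56 and 506 reads in the KO Inputs and 41 and 743 in the WT Inputs. Socs1 had 3 and 229 reads in the KO Inputs and 2 and 280 in the WT Inputs, and Dusp1, a phosphatase of MAP kinases, had 43 and 156 reads in the KO Inputs and 17 and 148 in the WT Inputs. The KO responses of these genes were 2.97, 5.67 and 1.65. The ARE-binding proteins of the Zfp36 family went different ways. Zfp36 had 307 and 644 reads in the KO Inputs and 178 and 595 in the WT Inputs, with a KO response of 0.89 (0.69 to 1.08), while Zfp36l1 had 608 and 167 reads in the KO Inputs and 331 and 141 in the WT Inputs and Zfp36l2 had 487 and 61 reads in the KO Inputs and 323 and 87 in the WT Inputs. The KO responses of the latter, -2.04 (-2.28 to -1.79) and -3.16 (-3.54 to -2.78), were decreases of at least 2-fold. The region of Zfp36l1 overlaps exons of Gm26669 by 1490 bases, where reads of the 2 cannot be told apart.

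Metabolic genes changed in groups. Of the arginine, nitric oxide and itaconate genes 8 of 10 tested were at least 2-fold higher and 1 was lower, with a median of 3.70, and Sod2, the mitochondrial superoxide dismutase, had 187 and 2231 reads in the KO Inputs and 133 and 2490 in the WT Inputs. Of the genes of hypoxia and glycolysis 18 of 29 were at least 2-fold higher and none was lower, with a median of 1.30. Pfkfb3, which drives glycolysis through fructose 2,6-bisphosphate, had 121 and 2222 reads in the KO Inputs and 95 and 2575 in the WT Inputs, and its KO response was 4.01 (3.74 to 4.27). Hif1a, the oxygen-regulated transcription factor, had 78 and 525 reads in the KO Inputs and 37 and 558 in the WT Inputs. Ldha and Pkm, which act late in glycolysis, had KO responses of 0.87 (0.69 to 1.05) and 0.22 (0.08 to 0.36), below the 2-fold threshold. Ldha lay above it with TMM factors (1.06) and with median-of-ratios scaling (1.08). Of the oxidative stress genes 11 of 18 were higher and none was lower, with a median of 1.22. Hmox1 (heme oxygenase 1) had 319 and 1306 reads in the KO Inputs and 304 and 1378 in the WT Inputs, and Txnrd1 had 177 and 720 reads in the KO Inputs and 156 and 961 in the WT Inputs. Txnip, an inhibitor of thioredoxin, had 654 and 422 reads in the KO Inputs and 427 and 421 in the WT Inputs, and its KO response of -0.81 (-0.99 to -0.63) was the lowest of the list. Of the 6 tested genes of prostaglandin and leukotriene synthesis only Ptgs2 and Ptges rose, and 3 fell, among them the lysosomal phospholipase Pla2g15 with 669 and 156 reads in the KO Inputs and 471 and 202 in the WT Inputs.

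The other lists had called members in shares that are read against those of all genes, of which 13.6% were higher and 17.4% lower. Of the lysosome and V-ATPase genes 9 of 34 were at least 2-fold lower and 2 were higher, with a median of -0.56. Atp6v0a1, a subunit of the proton pump, had 474 and 88 reads in the KO Inputs and 341 and 191 in the WT Inputs, and Ctsc (cathepsin C), which went the other way, had 26 and 155 reads in the KO Inputs and 12 and 179 in the WT Inputs. Of the macrophage receptors and factors 12 of 38 fell and 7 rose, with a median of -0.28. Mrc1, the mannose receptor, had 48 and 3 reads in the KO Inputs and 18 and 6 in the WT Inputs, while Clec4e (Mincle), a receptor for fungal and mycobacterial glycolipids, had 23 and 1160 reads in the KO Inputs and 17 and 1393 in the WT Inputs. Of the cell cycle list only 12 members were tested. Of these 6 fell and 3 rose, and the members that rose were Ccnd2, Ccnd3 and Cdkn1a, the last of which codes for a cell cycle inhibitor. E2f2, an activator of S-phase genes, had 140 and 7 reads in the KO Inputs and 92 and 11 in the WT Inputs. Of the cholesterol and fatty acid genes 5 of 26 rose and 3 fell. Of the unfolded protein response genes none of 12 rose and 2 fell, and of the immediate early factors 4 of 16 rose and 1 fell. The medians of these lists were -0.09, -0.21 and 0.27. The shares of the cholesterol and fatty acid genes that rose (19.2%) and of the unfolded protein response genes that fell (16.7%) were near those of all genes. Of the costimulation and antigen presentation genes 6 of 11 rose and none fell, with a median of 1.45, and Cd40 had 5 and 418 reads in the KO Inputs and 9 and 610 in the WT Inputs. Of the RNA-binding and deadenylation factors 2 of 29 rose and 6 fell (20.7%), with a median of -0.42. Of the 12 tested genes of cytosolic ribosomal proteins none rose and 1 fell.

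**Figure D2:**
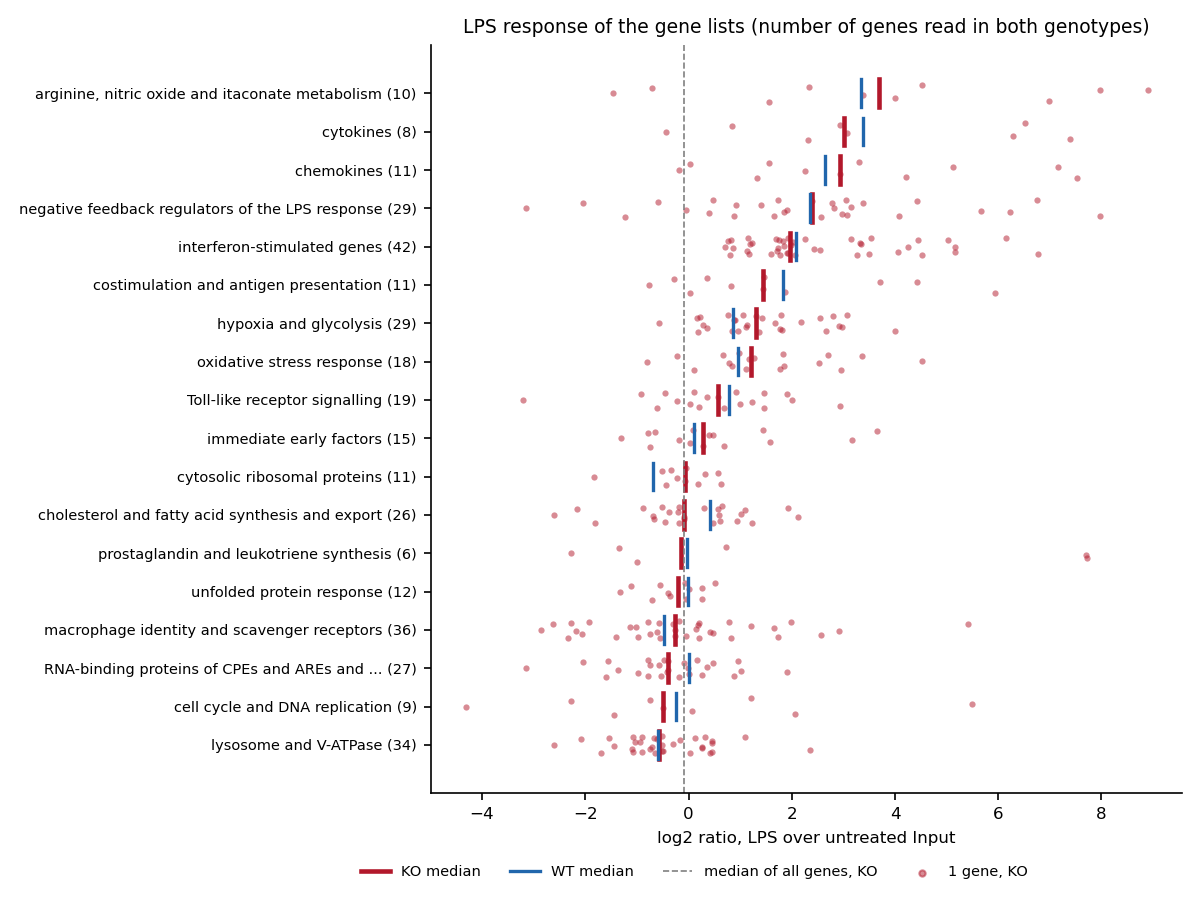
LPS response of the genes of each list as the log2 ratio of LPS over untreated Inputs, for genes with at least 50 reads in each genotype (number in parentheses). Points are single genes in the KO, red and blue bars are the KO and WT medians of the list, and the dashed line is the KO median of all genes. The medians run from -0.56 for the lysosome to 3.70 for arginine, nitric oxide and itaconate metabolism.

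The KO response was next set against that of the WT, to ask what differs without CPEB4. In the WT 742 genes were at least 2-fold higher (14.9% of 4981 tested) and 630 were at least 2-fold lower (12.6%). The KO and WT responses share no library. Both could be computed for 4730 genes, over which they correlated with a Pearson coefficient of 0.93 and a Spearman coefficient of 0.87. This is a description across genes, which are not replicates. Of the 659 genes higher in the KO, 523 were also called higher in the WT, or 79.4% of the KO list and 77.3% of the WT list of 677. Of the 761 genes lower in the KO, 503 were also called lower in the WT, or 66.1% of the KO list and 82.1% of the WT list of 613. No gene was called in opposite directions.

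The departure of a gene is the KO response minus the WT response, both on the log2 scale. It was within 1 in either direction for 4510 of the 4730 genes (95.3%). Its SD over genes was 0.49, where counting error alone gives 0.416. Among the 517 genes with at least 200 reads in every Input the SD was 0.298 against a counting error of 0.138, and the KO response itself had an SD of 0.742. A gene was called departing where the difference was at least 1 and its interval left out 0. This gave 48 genes upward (1.01% of 4730) and 106 downward (2.24%). Of these calls 31.2% were upward with 3′-UTR totals, 45% with the library totals and 53.9% with median-of-ratios scaling, so that the balance of the directions is not settled.

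**Figure D3:**
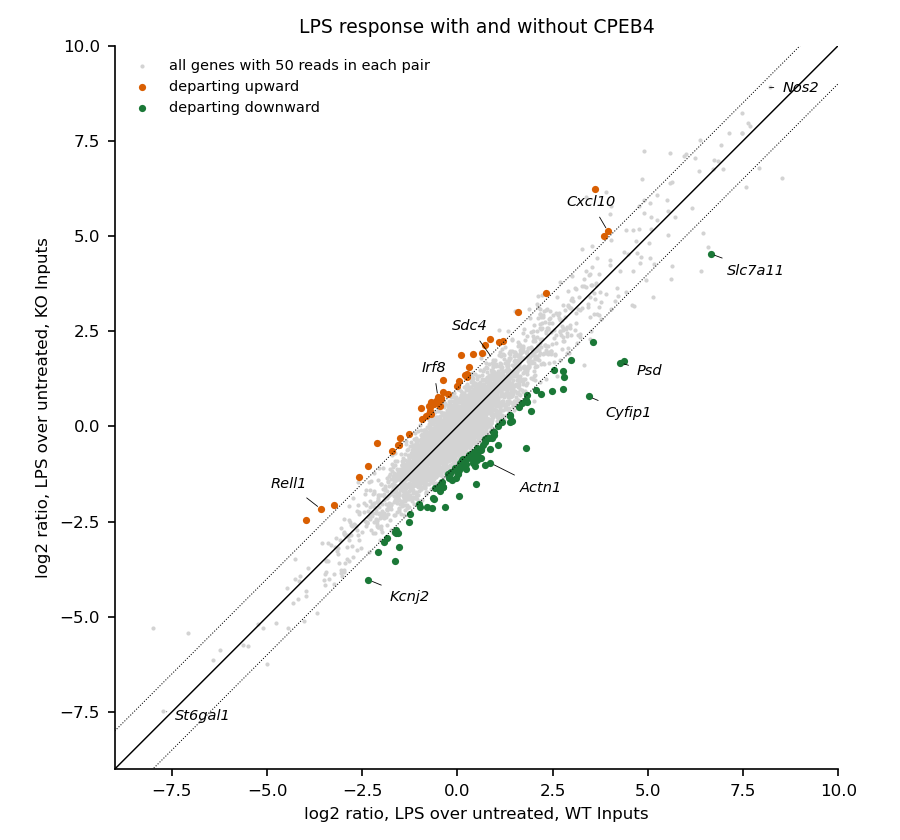
LPS response in the KO against that in the WT, each as a log2 ratio of LPS over untreated Inputs, for 4730 genes with at least 50 reads in each pair. The solid line marks equal responses, dotted lines a difference of 1, and colours mark the 48 genes departing upward and the 106 departing downward. Nos2 and St6gal1, among the strongest responses, lie between the dotted lines, while Cd28, Cxcr4, AA467197, Ccl5, Reps2, Cd38 and Slc9a9 lie outside them with intervals of the difference that hold 0.

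The 12 largest upward departures, ranked by the end of the interval nearest 0, were those of Irf8, Ubac2, Sdc4, Marcksl1, Lyz2, Sav1, Rpl27a, Lars2, Stard3nl, Ccnd1, Rab31 and Rell1. Irf8, a transcription factor of the myeloid lineage and of the interferon response, led them. Its 3′-UTR (chr8:120755176-120756694, + strand) had 265 and 511 reads in the KO Inputs and 215 and 308 in the WT Inputs. It was thus 0.76 (0.55 to 0.98) higher on the log2 scale with LPS in the KO and changed by -0.51 (-0.76 to -0.26) in the WT, a departure of 1.28 (0.95 to 1.61). The untreated libraries differed little, with a KO over WT log2 ratio of -0.21 (-0.47 to 0.05), and the LPS libraries more, with 1.07 (0.86 to 1.27). Irf8 was the 1 gene with at least 200 reads in every Input that departed upward by 1 or more.

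Sdc4 (syndecan 4), a cell surface proteoglycan, had 1095 and 4186 reads in the KO Inputs and 908 and 3554 in the WT Inputs, and was higher with LPS by 1.75 (1.66 to 1.85) in the KO and 0.94 (0.83 to 1.04) in the WT. Marcksl1, an actin-binding protein, had 341 and 1905 reads in the KO Inputs and 376 and 2063 in the WT Inputs, with responses of 2.30 (2.13 to 2.46) and 1.42 (1.26 to 1.58). For Marcksl1 the KO over WT log2 ratio was -0.65 (-0.86 to -0.44) untreated and 0.22 (0.13 to 0.31) with LPS, so that the larger part of the departure came from the untreated libraries. Lyz2, the lysozyme of macrophages, had 1977 and 1983 reads in the KO Inputs and 2197 and 2429 in the WT Inputs, and its departure of 0.71 (0.59 to 0.83) also came from the untreated libraries, which differed by -0.67 (-0.75 to -0.58). The departures of Sdc4, Marcksl1, Lyz2, Ccnd1 (0.83), Lars2 (0.73) and Rab31 (0.72) had narrow intervals but were under 1, so that 6 of these 12 genes were not called departing. Ccnd1 (cyclin D1), whose region overlaps exons of the gene annotated as LTO1, had 750 and 314 reads in the KO Inputs and 540 and 229 in the WT Inputs. It fell in both genotypes, by 1.43 in the KO and by 2.26 in the WT on the log2 scale. Rell1, a membrane protein related to the receptor RELT, had 146 and 36 reads in the KO Inputs and 99 and 16 in the WT Inputs, and its departure was 1.42 (0.51 to 2.32). Ubac2 and Stard3nl had departures of 1.61 (0.84 to 2.37) and 1.43 (0.54 to 2.32), on 35 to 94 and 34 to 59 reads per library. Sav1, a scaffold of the Hippo pathway, had only 12 to 53 reads per library, and its region lies within exons annotated to Atl1.

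The 12 largest downward departures were those of Cyfip1, Trim3, Pcdh7, Actn1, Kctd12, Brpf3, Zfhx3, Psd, Kcnj2, Alcam, Otud4 and Vcl. Cyfip1, a subunit of the WAVE complex that nucleates actin, had 41 and 81 reads in the KO Inputs and 4 and 110 in the WT Inputs. It was higher with LPS by 0.79 (0.25 to 1.32) in the KO and 3.44 (2.15 to 4.74) in the WT, and the WT value rests on 4 untreated reads. Actn1 (α-actinin 1), which crosslinks actin, had 66 and 38 reads in the KO Inputs and 16 and 62 in the WT Inputs, with responses of -0.96 (-1.53 to -0.39) and 0.86 (0.09 to 1.63). Vcl (vinculin), a linker of adhesions to actin, had 84 and 53 reads in the KO Inputs and 30 and 97 in the WT Inputs, with responses of -0.83 (-1.33 to -0.34) and 0.63 (0.05 to 1.21). Its region lies within exons annotated to Ap3m1. Alcam, an adhesion molecule, and Pcdh7, a protocadherin, followed. Alcam had 201 and 85 reads in the KO Inputs and 79 and 147 in the WT Inputs, and Pcdh7 had 68 and 21 in the KO Inputs and 22 and 47 in the WT Inputs. Both fell at least 2-fold in the KO, and their WT responses were -0.14 (-0.54 to 0.25) and 0.03 (-0.69 to 0.75).

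Kctd12, an auxiliary subunit of GABA-B receptors, was the best-read of these genes. Its 3′-UTR (chr14:102976581-102981456, - strand) had 723 and 879 reads in the KO Inputs and 344 and 1590 in the WT Inputs, and the responses were 0.10 (-0.04 to 0.24) and 1.18 (1.01 to 1.34), a departure of -1.07 (-1.29 to -0.85). It was the 1 gene with at least 200 reads in every Input that departed downward by 1 or more. The departure was -0.74 once the median of genes of like length and GC content was subtracted, and the region overlaps exons of Gm26778. Kcnj2, an inward-rectifier potassium channel, had 201 and 13 reads in the KO Inputs and 98 and 39 in the WT Inputs, and fell by 4.03 in the KO and 2.34 in the WT on the log2 scale. Psd had 14 and 53 reads in the KO Inputs and 2 and 117 in the WT Inputs, but its region overlaps exons of Nfkb2 by 299 bases. Reads of the 2 genes cannot be told apart there, and Nfkb2, a subunit of NF-kB that is induced by LPS, had 9 and 86 reads in the KO Inputs and 4 and 129 in the WT Inputs. Otud4, a deubiquitinase, Zfhx3, a transcription factor, and Brpf3 each fell at least 2-fold in the KO, and their WT responses were 0.01, -0.68 and 0.48.

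**Figure D4:**
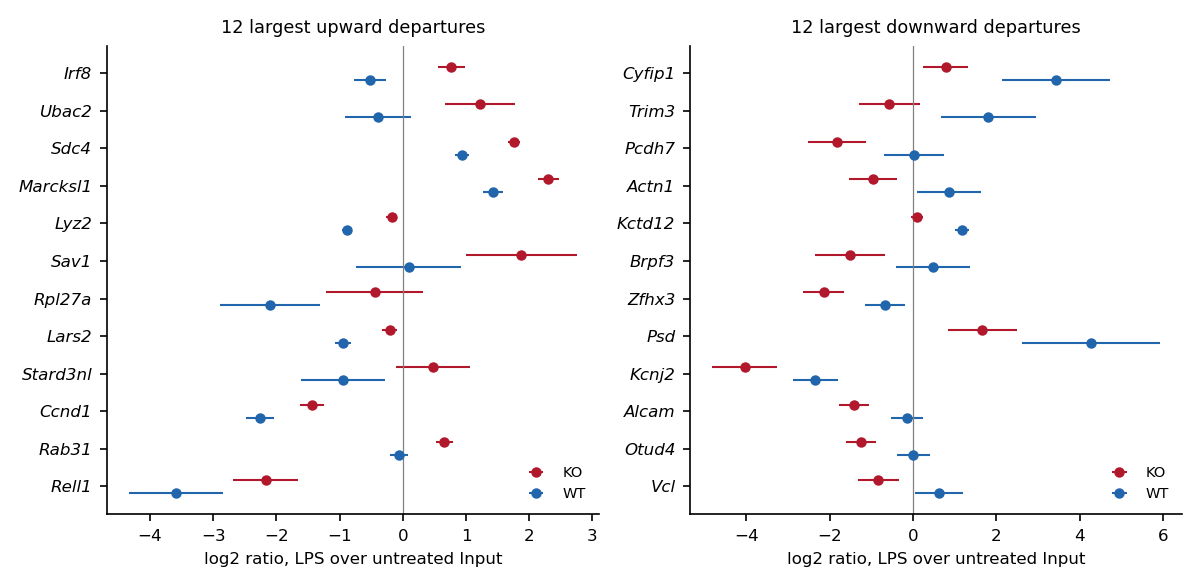
LPS response of the 12 genes with the largest upward (left) and the 12 with the largest downward departures (right), as the log2 ratio of LPS over untreated Inputs in the KO (red) and the WT (blue). Bars are 95% intervals from counting error. The intervals of Sdc4, Lyz2 and Kctd12 are narrow and separate, while those of Cyfip1 and Psd in the WT are wide, with 4 and 2 untreated reads.

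The departing genes took several forms. Of the 48 upward, 12 were called higher in the KO alone, 6 were called lower in the WT alone, 7 were higher and 5 lower in both genotypes, and 18 were called in neither. Of the 106 downward, 31 were called lower in the KO alone, 19 were called higher in the WT alone, 8 were higher and 13 lower in both, and 35 were called in neither. The genotypes differed more in the untreated than in the LPS libraries for 28 of the 48 upward and 62 of the 106 downward genes. The median KO over WT log2 ratio of the downward genes was 0.70 untreated and -0.55 with LPS. For the upward genes it was -0.76 and 0.52. A departure equals the KO over WT log2 ratio with LPS minus that untreated, so opposite signs of these medians follow largely from the call. The counts above describe the called genes only, with no share over all genes beside them. The untreated WT library was the shallowest, and 42 of the downward and 9 of the upward genes had under 20 reads in it. The median there was 24.5 reads over the downward and 33.5 over the upward genes, beside 55 over all 4730 genes. The share of all genes with under 20 reads in it is not given, so these counts too describe the called genes only.

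In the lists at most 2 genes departed in either direction, beside 1.01% upward and 2.24% downward over all 4730 genes. Of 42 interferon-stimulated genes 1 departed upward and 1 downward. In smaller lists the shares were larger, with 2 of 11 ribosomal protein genes upward and 2 of 10 arginine, nitric oxide and itaconate genes downward. Of 27 RNA-binding and deadenylation factors 2 departed downward. Dusp2, a nuclear phosphatase of MAP kinases, had 1 and 170 reads in the KO Inputs and 5 and 148 in the WT Inputs and departed upward by 2.63 (0.30 to 4.96). Cxcl10, an interferon-induced chemokine, had 22 and 905 reads in the KO Inputs and 23 and 757 in the WT Inputs, and its departure was 1.17 (0.33 to 2.01). Gas6, the ligand of the receptor Axl, had 173 and 46 reads in the KO Inputs and 146 and 31 in the WT Inputs and departed by 1.16 (0.44 to 1.88). Of the ribosomal protein genes, Rpl27a had 29 and 24 reads in the KO Inputs and 39 and 18 in the WT Inputs, and Rpl29 had 35 and 62 in the KO Inputs and 44 and 56 in the WT Inputs. Among the downward genes, Slc7a11, the cystine transporter, had 11 and 313 reads in the KO Inputs and 3 and 819 in the WT Inputs, a departure of -2.12 (-3.76 to -0.48), and the arginine transporter Slc7a1 had 140 and 57 reads in the KO Inputs and 105 and 161 in the WT Inputs, a departure of -1.04 (-1.61 to -0.48), which was between -0.97 and -0.91 and thus under the threshold with median-of-ratios scaling, the library totals, 5 added reads or subtraction of length and GC medians. Ifi35 had 16 and 62 reads in the KO Inputs and 1 and 83 in the WT Inputs, H2-Ab1, a class II antigen-presenting chain, had 34 and 107 reads in the KO Inputs and 9 and 139 in the WT Inputs, and the chaperone Hspa5 had 28 and 46 reads in the KO Inputs and 14 and 92 in the WT Inputs. Hspa5 lost its call with median-of-ratios scaling (-0.98) and with 5 added reads (-0.87). Rc3h1 and Rc3h2 (roquin 1 and 2), which bind stem-loops in the 3′-UTRs of inflammatory mRNAs and recruit deadenylases, both departed downward, by -1.23 (-1.77 to -0.68) and -1.21 (-1.86 to -0.57). Rc3h1 had 218 and 81 reads in the KO Inputs and 80 and 127 in the WT Inputs, and Rc3h2 had 145 and 83 in the KO Inputs and 41 and 100 in the WT Inputs. Dusp2, Gas6, Ifi35, H2-Ab1, Rc3h1 and Rc3h2 are named because their list holds a departing gene, after their values were seen.

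For the lists of mediators the median departure was -0.16 over 8 cytokines, 0.28 over 11 chemokines (9 of them above 0), -0.05 over 42 interferon-stimulated genes and 0.15 over 29 feedback regulators, beside -0.06 over all 4730 genes. The interval of the departure left out 0 upward for 6 and downward for 0 of the feedback regulators. For all genes these counts were 349 and 429. For the study's genes Tnf, Tnfaip3, Hif1a and Zfp36 the departures were -0.10 (-0.71 to 0.50), -0.14 (-0.74 to 0.45), -0.29 (-0.88 to 0.29) and 0.18 (-0.13 to 0.49), whose intervals all held 0. Il1rn departed by 0.76 (0.37 to 1.15) and Vegfa, the endothelial growth factor, by 0.72 (0.20 to 1.24), upward beyond counting error but by under 1. Txnip departed by 0.24 (-0.02 to 0.50). Il1a and Cxcl2 had departures of -2.01 (-5.48 to 1.46) and -1.40 (-3.15 to 0.35), wide because of few untreated reads. Between the LPS libraries alone the study's genes went both ways. The KO over WT log2 ratio there was -1.52 (-1.74 to -1.30) for Il1a and -0.91 (-1.17 to -0.65) for Cxcl2. For Tnf it was -0.49 (-0.66 to -0.33), for Zfp36 0.45 (0.29 to 0.61) and for Vegfa 0.57 (0.27 to 0.86). Cxcl1, read below the minimum in the KO, was at -1.58 (-2.43 to -0.73). Ptgs2 and Tnfaip3 were at -0.27 (-0.44 to -0.10) and -0.22 (-0.38 to -0.05). Dusp1 was at 0.41 (0.09 to 0.74), Txnip at 0.34 (0.15 to 0.53), Il1rn at 0.26 (0.18 to 0.34) and Hif1a at 0.25 (0.08 to 0.42). Tbp was at 0.70 (0.16 to 1.24). For Socs1 and Socs3 the ratios were 0.05 (-0.20 to 0.30) and 0.07 (-0.02 to 0.16).

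The departures of some other lists follow, and no difference between lists was tested. The median responses of the cytosolic ribosomal proteins were -0.07 in the KO and -0.69 in the WT over the 11 members read in both genotypes, with a median departure of 0.64. Rpsa had 79 and 71 reads in the KO Inputs and 91 and 84 in the WT Inputs and Rplp1 had 56 and 54 reads in the KO Inputs and 51 and 57 in the WT Inputs. These are short regions with few reads, the median length being 388 bases. The median KO over WT log2 ratio of the ribosomal list was -0.32 untreated and 0.22 with LPS. For the oxidative stress genes the medians were 1.22 in the KO and 0.95 in the WT over the 18 members read in both genotypes, and the departure was above 0 in 17 of 18, with a median of 0.45. Fth1 and Ftl1 code for the chains of ferritin. Fth1 had 466 and 568 reads in the KO Inputs and 429 and 573 in the WT Inputs, and Ftl1 had 503 and 486 in the KO Inputs and 472 and 520 in the WT Inputs, with departures of 0.72 (0.47 to 0.97) and 0.66 (0.41 to 0.92). Hmox1, which frees iron from heme, departed by 0.70 (0.45 to 0.95). With the same subtraction of length and GC medians as for Kctd12, Fth1 was at 0.46, Ftl1 at 0.56 and Hmox1 at 0.50. The median KO over WT log2 ratio of the list was -0.35 untreated and 0.16 with LPS. For hypoxia and glycolysis the medians were 1.30 in the KO and 0.87 in the WT over the 29 members read in both genotypes, and 23 of 29 departures were above 0, with a median of 0.29. No gene of the hypoxia list was called departing. Its median KO over WT log2 ratio was -0.21 untreated and 0.11 with LPS, so that the larger part of its departure came from the untreated libraries. The RNA-binding and deadenylation factors lay the other way, with medians of -0.40 in the KO and 0.01 in the WT over the 27 members read in both genotypes, and 5 of 27 departures were above 0. Khsrp, which binds AREs, had 599 and 486 reads in the KO Inputs and 387 and 627 in the WT Inputs, and Btg1, which binds the deadenylase complex, had 359 and 236 reads in the KO Inputs and 204 and 381 in the WT Inputs, with a departure of -0.65 (-0.99 to -0.31). After the medians of genes of like length and GC content were subtracted, Btg1 was at -0.32. The KO over WT log2 ratio of this list had a median of 0.27 untreated and -0.03 with LPS, so that the larger part of its departure came from the untreated libraries. The part of library depth in this was not tested. Over all genes 2116 of 4730 departures were above 0. In the lysosome list the interval of the departure lay above 0 for 9 and below 0 for 3 of 34 members. Over all 4730 genes it lay above 0 for 349 and below 0 for 429. Atp6v0a1 departed by -0.73 (-1.15 to -0.32), while Psap, Ctsb, Ctsd and Npc2 departed by 0.56 (0.44 to 0.69), 0.42 (0.31 to 0.52), 0.53 (0.40 to 0.66) and 0.56 (0.43 to 0.70). The KO responses of these last genes were -0.51, -0.61, -0.49 and 0.03, and the list as a whole had a median departure of 0.16. For Psap, Ctsb, Ctsd and Npc2 the KO over WT log2 ratios were -0.29, -0.37, -0.47 and -0.32 untreated. With LPS they were 0.28, 0.05, 0.06 and 0.25. The region of Ctsb overlaps exons of Fdft1 by 770 bases.

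The departure moved with the length of the 3′-UTR and its base composition, which the choice of genes did not use. Over 5 equal groups of genes by region length, from a median of 434 to 3972 bases, the median KO response fell from 0.18 to -0.38 and the median WT response from 0.02 to -0.18. The median departure went from 0.13 in the group with the shortest to -0.20 in that with the longest regions. Of the shortest regions 19.2% were called higher and 9.82% lower in the KO, and of the longest 9.21% and 25.3%. Of the 48 upward departures 22 were among the shortest and 2 among the longest regions, and of the 106 downward departures 19 and 31. For GC content the lowest group, with a median of 37.3%, had a median departure of -0.18 and 44 of the 106 downward departures. Its median KO over WT log2 ratio was 0.24 untreated and 0.06 with LPS. In the other groups of GC content the median departure was between -0.09 and -0.01. The part of library preparation in these gradients was not tested. When the median departure of each bin of length and GC content (5 by 5 bins) was subtracted, 49 genes departed upward and 86 downward. The list medians were then 0.56 (ribosomal proteins), 0.42 (oxidative stress), 0.30 (hypoxia and glycolysis) and -0.13 (RNA-binding and deadenylation).

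**Figure D5:**
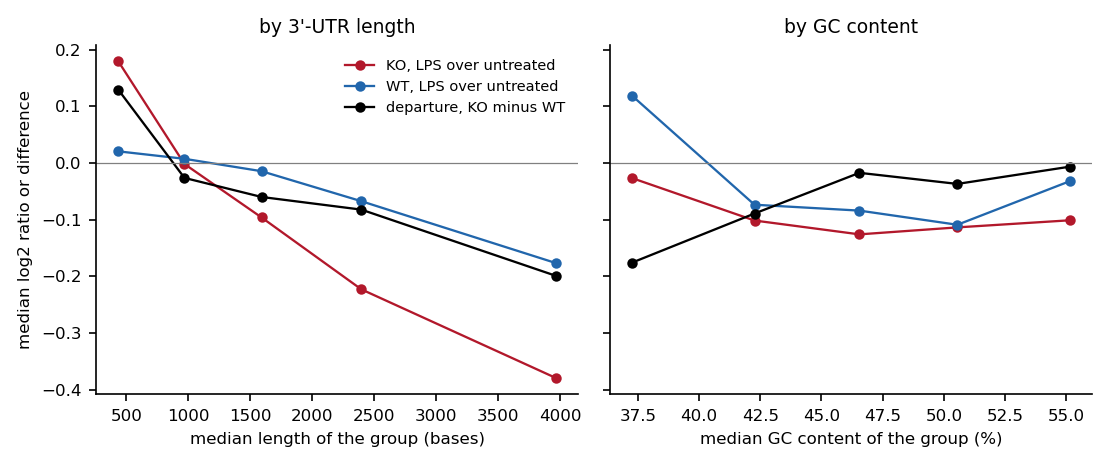
Median LPS response in the KO (red) and the WT (blue) and median departure (black), on the log2 scale, over 5 equal groups of 4730 genes by 3′-UTR length in bases (left) and by GC content in percent (right). Lines join the groups. The KO medians fall more steeply with length than the WT medians, and the departure of the group with the lowest GC content lies below the others.

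CPEs were looked at last, since CPEB4 binds them. The authors predicted a CPE for 2024 of the 5010 genes tested in the KO. A prediction was present for 36.4% of the genes higher with LPS in the KO (95% Wilson interval 32.9% to 40.1%), 45.7% of those lower (42.4% to 49.0%) and 39.8% of the others (38.2% to 41.5%). The lower genes also had the longer regions, with a median of 2109 bases beside 1252 for the higher ones. Of the departing genes 33.3% of the 48 upward and 55.7% of the 106 downward held a prediction, beside 39.6% of all 4730. Genes with a prediction had a median departure of -0.12 and those without of -0.02, and their median lengths were 2286 and 1218 bases. Within the groups of region length the medians of genes with and without a prediction were 0.11 and 0.13 in the shortest and -0.22 and -0.17 in the longest. After subtraction of the medians of the length and GC bins, they differed by at most 0.04 in the 5 groups.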

How the data were processed

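The study sequenced RNA immunoprecipitates and Inputs of BMDMs, and levels and ratios were computed from the 4 Input libraries only. The region of a symbol was the one with most reads over all 8 libraries, RIP included, and the one with most Input reads was an alternative. According to the methods of the study and the submitters' processing notes, the authors aligned reads with Bowtie2 2.2.2 to mm10, removed duplicates, and counted reads over Ensembl 3′-UTRs without normalisation, so that the deposited counts are whole reads per region and library. Reads in regions shared by isoforms were counted more than once. RPKM were deposited as well: the authors divided each count by the region length in bases and a library total. This total, recovered here, served as an alternative scaling. The authors' fold changes, p-values and peak scores of RIP over Input were not used. The kit does not mark the strand.

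Of 31117 rows 495 had no symbol (0.942% to 1.04% of the reads) and were left out. Regions were matched to GENCODE M21 and GRCm38.p6 by coordinates, and 14250 of 14925 regions directly follow a stop codon in that sequence. Ratios, intervals and calls were computed in Python 3.11.15 (numpy, pandas) as given above, TMM factors with edgeR 4.0.16, overlaps with bedtools 2.31.1, and the code was tested on simulated data. No count test was run on 1 library per group. Intervals of ratios cover counting error only, and reads without molecular identifiers are not independent molecules. The genes named are the 15 highest and lowest KO responses, the 12 highest and lowest departures, genes the study names, and in each list the 4 most read with the highest and lowest. The members, lists and rules were chosen with earlier results of these data known. Alternatives were other scalings, 0.1 or 5 reads added, other read minimums, other regions and other call rules. The RIP libraries were otherwise not analysed here, and 1 of the 15 genes that rose most is not reported here.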

Additional observations from a re-analysis of the deposited data

Results flagged for a closer look

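With reads scaled to 3′-UTR totals, 16 of 4730 genes moved in opposite directions with LPS in the KO and the WT, each beyond counting error. Other scalings shifted KO ratios upward by 0.14 to 0.21 and WT ratios by 0.07 to 0.14. Opposite signs that rest on a small decrease are therefore not settled. For Rpl29 the WT interval ended at -0.125, and TMM factors shift WT ratios by 0.139. Those of the 16 that also departed by at least 1 are given here. Upward departures were 1.28 for Irf8, 1.32 for Rpl29 and 1.22 for Cdk5rap2. Cdk5rap2 had 32 untreated and 58 LPS reads in the KO, against 51 and 71 in the WT, and its region overlaps the pseudogene Ywhaq-ps3. Downward departures were -1.82 for Actn1, -1.47 for Vcl, -1.09 for Pdzd8 and -1.07 for Stk35. Stk35 had 198 untreated and 182 LPS reads in the KO, against 99 and 348 in the WT. Pdzd8 had 83 and 63 in the KO, against 44 and 131. With 1 library on each side the difference between the genotypes was not tested for any of these genes. These genes were picked for the contrast from all 4730, and their values are a description.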

How the results depend on the processing

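No paired analysis was possible because the lane numbers shared by the groups mark 2 runs of the same library, which are added up in the deposited columns, and each group is 1 library.

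The counts moved most with the read minimum. With at least 20 reads in the pair, 1373 genes were lower with LPS in the KO and 1048 in the WT, and 97 departed upward and 188 downward. With at least 100 reads, 561 were lower in the KO, and 13 departed upward and 44 downward. Without a minimum the calls were 1554 higher and 3098 lower in the KO, 1451 higher and 6245 lower in the WT, and 134 upward and 218 downward departures. The last setting counts genes with no read in either WT library (3356) as lower, since 1 added read gives them a log2 ratio of -1.03 at these depths. Median-of-ratios scaling gave 76 upward and 65 downward departures, 5 added reads gave 51 downward departures, and 79 departed upward where the interval did not have to leave out 0. Every other count of calls was within 1.5 times the reported one, also with TMM factors, the library totals, 0.1 added reads and either other choice of region. Subtraction of length and GC medians, chosen after seeing the data, gave 49 upward and 86 downward departures.

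The single genes named were recomputed under the other scalings, added reads and regions. Of 1036 such KO responses 949 stayed within the counting interval of the reported value, and of 1168 departures 1161 did. No called KO response and no called departure of these genes changed sign. The other scalings shifted these values by at most 0.21, so that for them a change of sign was hardly possible. Some KO responses just under the threshold passed it under other scalings. Ldha was at 1.06 with TMM factors, and Ldha, Zfp36 and Parp14 were at 1.08, 1.09 and 1.02 with median-of-ratios scaling. Some departures close to the threshold lost their call: Kctd12 was at -0.97 and Hspa5 at -0.98 with median-of-ratios scaling, Hspa5 at -0.87 with 5 added reads, and Slc7a1 between -0.97 and -0.91 with median-of-ratios scaling, the library totals, 5 added reads or the subtraction of length and GC medians. That subtraction also left Kctd12 at -0.74 and Otud4 at -0.92. With 5 added reads Cyfip1 was at -1.92, Trim3 at -1.79, Psd at -1.66 and Slc7a11 at -1.52. With 1 library on each side no setting stands in for a replicate, and genes with under 20 reads in the untreated WT library have wide intervals.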
